A study of Mus musculus with 18 samples.

Results

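The cytosolic ribosomal protein genes were followed across the 10 libraries of a mouse colon tumor series that came from serine-free diets. Members were chosen by name: rows typed protein_coding whose symbol begins with Rpl, Rps or Rplp followed by a number, leaving out the Rps6k kinases and names that end as numbered pseudogenes. The rule took 86 of 54354 rows, 49 named for the large subunit, 34 for the small subunit and 3 for the P stalk (Rplp0, Rplp1 and Rplp2). The names fit the label with at least 2 exceptions, since Rps19bp1 encodes a protein that binds Rps19 and Rps23rg1 is a retrogene of Rps23. Counts were above 0 in all 10 libraries for 81 members. The testis-type paralog Rpl39l, the muscle-type Rpl3l and Rps27rt, a near-copy of Rps27, had 0 counts in all 10, Rpl10l had 1 count, and these 4 were not tested. Some genes whose products are also part of ribosomes, such as Rpsa, Fau and Rack1, fall outside the name rule and are given with the pathway genes.

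The libraries were poly(A)-selected and strand-specific. Per the labels, the tissue was colon, the cell type tumor and the genotype wild type for every sample. The groups are a serine-free control diet (SF_CD, n = 5) and a serine-free high fat diet (SF_HFD, n = 5), so by name both lacked dietary serine and differed in fat. The extraction protocol names organoids, which are three-dimensional cultures of epithelial cells, while the design text describes sorted live cells, and which of these gave the RNA is unclear. The series title carries the tag GFP, which no label explains. Whether the libraries of a group came from separate mice or cultures is not stated, so the tests weigh differences against a spread that may be technical. Libraries on control and high fat diets with serine (8 libraries) were not used, since 59 of the 86 member rows read 0 in all 8 of them and the row labels do not name the genes counted in those columns.

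Each ribosome has a large and a small subunit, and each subunit is ribosomal RNA clothed in one copy of nearly every ribosomal protein. The genes are scattered over the chromosomes but are made in near-equal amounts, and protein made in excess of its partners is degraded. Their mRNAs begin with a terminal oligopyrimidine (TOP) tract, a run of C and T at the first transcribed bases through which the kinase mTOR, with the RNA-binding protein Larp1, adjusts their translation to nutrients. In intestinal epithelium these mRNAs are most abundant in the dividing stem and progenitor cells of the crypt. Reads of mRNA do not show translation, and in bulk RNA fewer cells of a type cannot be told apart from less RNA per cell.

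Depth differed widely between libraries. Total counts ran from 499774 to 12841275, and 3 libraries held under 1000000 counts: SF_CD 1, SF_CD 5 and SF_HFD 5. Rows of ribosomal RNA took 21.99% of SF_CD 1 and 14.5% of SF_CD 5, against 2.08% to 7.19% of the other 8, and the nuclear RNA Malat1 took 12.1% of SF_CD 1. Markers of colon epithelium summed to 2562 to 6771 CPM (counts per 1000000, after TMM scaling) in SF_CD and 4852 to 11861 in SF_HFD, with 11 of 12 measured and Krt19 among the most abundant. Smooth muscle markers were low but differed (6 of 7 measured, 3 called higher, 2.94 to 24.4 against 168 to 258 CPM in SF_HFD). Fibroblast markers had 1 gene called higher of 6 measured, immune markers 1 called lower of 3 measured with Cd3e at 0, and endothelial markers summed to at most 33.8 CPM.

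The promoter table of RefSeq (GRCm38.p6) held 66 of the 86 members, with 78 start sites. Runs of C and T on the gene's own strand were counted if they covered the start or began within 5 bases of it. Such a run of at least 8 bases stood at 22 of these 78 sites (28.2%), against 6.31% of all 32851 promoters in the table. By gene the shares were 33.3% of members and 7.43% of all 27025 genes. The median longest run so counted was 4 bases at member sites and 3 at all sites. Annotated starts can be off by some bases, so a site without the run says only that none met this rule at the annotated start. A run that began farther upstream and ended before the start was not counted, as at the Rpl19 start of chr11:98026909-98026938. The windows below hold 30 bases, of which 15 precede the annotated start. Capitals mark the longest run of C and T that covers this start or begins within 5 bases of it. The first 4 show clear tracts in genes of both subunits. The last 4 belong to 4 of the 7 ribosomal protein genes whose levels stood apart in 1 or 2 libraries. The others, Rpl39, Rps2 and Rpl22l1, had runs of 5, 6 and 10 bases.
Rpl15, chr14:18270972-18271001, minus strand: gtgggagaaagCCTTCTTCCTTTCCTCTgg
Rpl27a, chr7:109519180-109519209, plus strand: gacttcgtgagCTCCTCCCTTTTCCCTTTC
Rpl35, chr2:39005117-39005146, minus strand: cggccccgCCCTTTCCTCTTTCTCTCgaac
Rps6, chr4:86857353-86857382, minus strand: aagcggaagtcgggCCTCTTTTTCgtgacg
Rps26, chr10:128626492-128626521, minus strand: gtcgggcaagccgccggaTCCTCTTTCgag
Rpl37a, chr1:72711245-72711274, plus strand: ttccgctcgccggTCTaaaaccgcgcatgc
Rpl28, chr7:4792950-4792979, plus strand: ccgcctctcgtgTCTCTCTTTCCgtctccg
Rps24, chr14:24490663-24490692, plus strand: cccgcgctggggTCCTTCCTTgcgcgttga
The runs of Rpl28 (11 bases) and Rps24 (9 bases) began 3 bases before the annotated start and that of Rps26 (9 bases) at base 4 of the transcript. The marked run of Rpl37a was 3 bases. Rps24 has another annotated start downstream, where the run is 2 bases.

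The members together took between 6.39% and 21.0% of all counts in a library. In SF_CD 1 to 5 the shares were 6.39%, 21.0%, 20.6%, 19.1% and 11.0%. In SF_HFD 1 to 5 they were 18.6%, 16.9%, 17.6%, 16.1% and 13.4%. The lowest 3 shares were those of the 3 libraries under 1000000 counts, and the groups overlapped, with means of 15.6% ± 6.55 (SD, n = 5) in SF_CD and 16.5% ± 1.94 (SD, n = 5) in SF_HFD. As a share of counts outside ribosomal RNA rows the means were 16.6% ± 5.84 and 17.3% ± 2.15 (SD, n = 5 each). The SF_HFD minus SF_CD difference of 0.928 percentage points became -2.90 points without the 3 shallow libraries, -1.37 without SF_CD 1 and -0.223 without SF_CD 5. Large- and small-subunit genes kept nearly the same proportion: their counts stood at a ratio of 1.24 ± 0.0712 in SF_CD and 1.26 ± 0.0985 in SF_HFD (SD, n = 5 each).

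**Figure D1:**
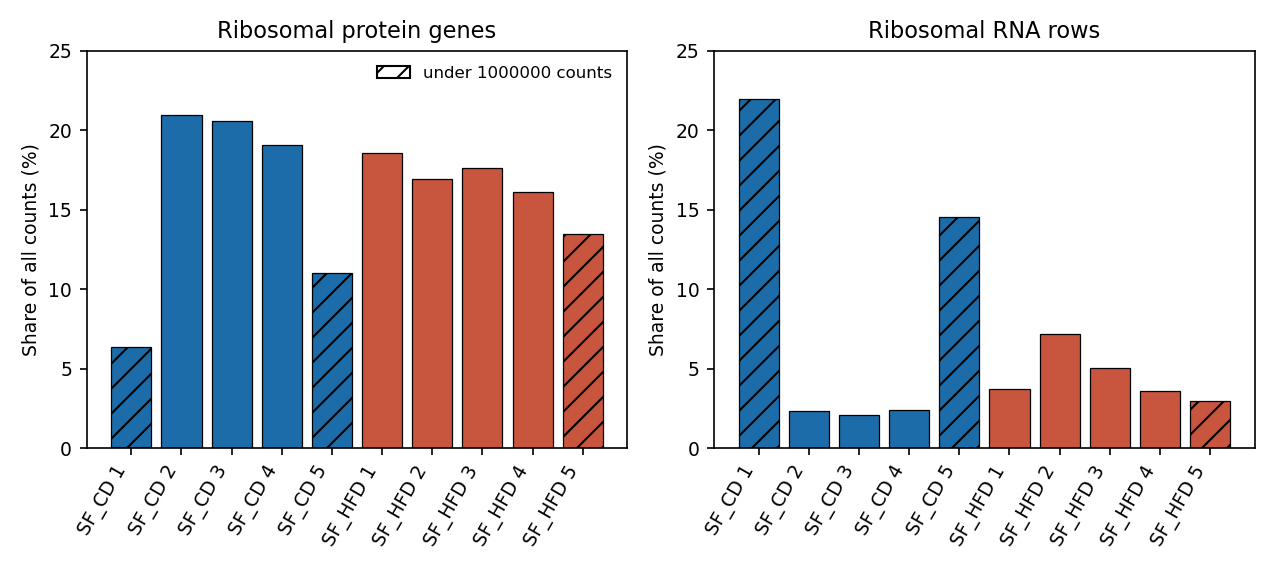
Share of all counts (%, left) on the 86 ribosomal protein genes and (%, right) on ribosomal RNA rows, 1 bar per library, hatched where the library holds under 1000000 counts. The 3 hatched libraries have the lowest member shares (6.39%, 11.0% and 13.4%), and SF_CD 1 and SF_CD 5 have the highest ribosomal RNA shares.

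Within the family, levels per length spanned a wide range. CPM per kilobase of the gene's longest annotated transcript, averaged over the 10 libraries, had a median of 1404 over the 82 tested members. Rpl41, a very short peptide of the large subunit, stood highest at 11743 ± 3233 (SD, n = 10). Rps14 at 7218 ± 2592, Rps18 at 5996 ± 2177 and Rpl17 at 5321 ± 2616 CPM per kilobase (SD, n = 10 each) were also among the top 10, as were Rpl32, Rpl23a, Rps29 and Rplp0, from 4626 down to 3949.8. Neighbours in this order from Rps14 to Rplp0 lay within 1 SD of each other, so their order is not resolved. Rps23rg1 (2.80), Rps19bp1 (39.4), Rpl10 (61.2), Rpl7l1 (67.3) and Rpl9 (88.3) were lowest. Between 7 and 10 of the top 10 stayed there with median transcript length, without the shallow libraries or with the rows of copies added. Transcript length matters here, since a long rare isoform lowers a gene's level per kilobase, as with Rps24 (4059 bases).

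The low places of Rpl10 and Rpl9 went with counts on other rows. Ribosomal protein genes have many near-identical retrocopies, and Salmon divides reads that match several transcripts by a statistical estimate. Of the 86 members, 74 had at least 1 other row that shares at least 50% of the 31-base words of the shorter sequence, 325 such rows in all. These rows, called copies here, include some small nucleolar RNAs and microRNAs. For Rpl4, Rpl32 and Rplp2 the only such row was a small nucleolar RNA, so both numbers overstate the retrocopies. A median of 23.4% of a member's words also occurred in other genes. These copy rows together took only 0.785% ± 0.275 of counts in SF_CD and 0.914% ± 0.116 in SF_HFD (SD, n = 5 each), but they were concentrated: 13 members had more than 5% of the summed counts on copies, and 5 had the greater part there. Rpl10, whose protein completes the peptidyl transferase region late in subunit assembly, had 4518 counts on its own row and 118872 on Rpl10-ps3. Rpl9 had 19566 against 99321 on Rpl9-ps6, and Rps2, of the small subunit's mRNA entry, 16013 against 35792 on Rps2-ps10. Rpl35, at the rim of the exit tunnel, had 105701 against 199129 on Gm2000, and Rpl36a 38907 against 56593 on Rpl36a-ps1. With copies added, Rpl10 rose from place 80 to place 39 of the level order, from 56.9 to 1535 CPM. The levels of these 5 genes are therefore uncertain on their own rows.

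**Figure D2:**
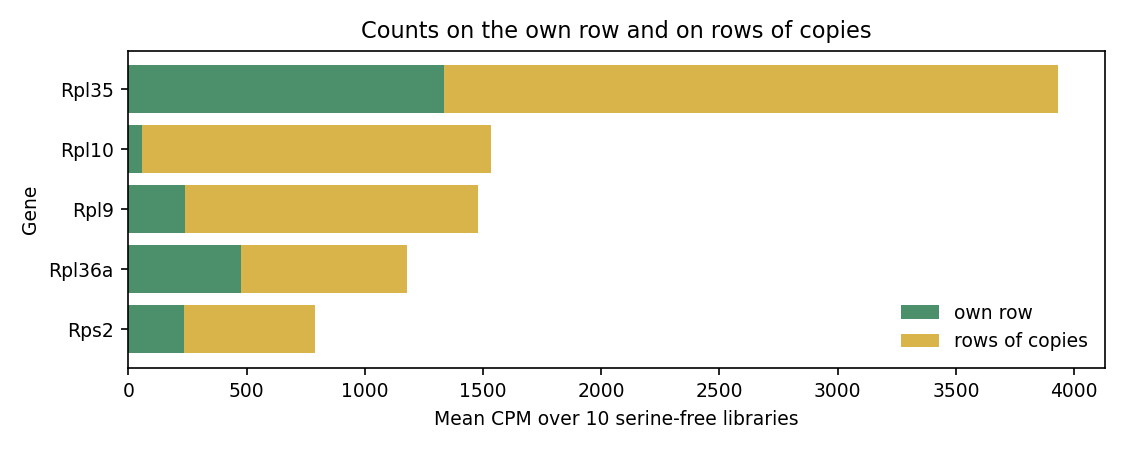
Mean CPM over the 10 serine-free libraries (horizontal axis) on the own row and on rows of copies for the 5 members with the greater part of their summed counts on copies. The copies hold the longer stretch of each bar, with Rpl10 the most uneven (56.9 of 1535 CPM on its own row).

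Most members moved up and down together from library to library. For each member the log2 CPM was taken relative to its median over the 10 libraries, and the median of these deviations over members is the common shift of a library. The shift was -1.18, 0.34, 0.35, 0.10 and -0.43 in SF_CD 1 to 5, and 0.28, -0.10, 0.08, -0.14 and -0.45 in SF_HFD 1 to 5. The common level was thus lowest in the 3 shallow libraries, SF_CD 1 most of all, and it was above 0 in the other libraries of SF_CD. Depth, ribosomal RNA share and Malat1 share moved with it in SF_CD 1 and SF_CD 5. In the shallow SF_HFD 5 ribosomal RNA took 2.97% and Malat1 0.801% of counts, both within the range of the deep libraries. The part of depth and of these shares in the shift was not tested. Subtracting the shift lowered the median SD of a member's log2 CPM over the 10 libraries from 0.54 to 0.24, where the median over all 11780 genes tested, unshifted, was 0.89. The largest SDs before subtraction were those of Rps23rg1 (1.70), Rps26 (1.03), Rpl28 (0.88), Rpl17 (0.86) and Rpl39 (0.84). Across the 10 libraries 64 of the 82 tested members correlated with the summed level of the other members at r above 0.8, and 45 above 0.9 (median r 0.91), which describes libraries that share depth and scaling. The same correlation was not computed for all genes, so it is not shown to be particular to the family. It was also not computed without SF_CD 1, whose shift was the farthest from 0. Rps19bp1, the binding protein, had the lowest value (-0.43), followed by Rps2 (0.35), the retrogene Rps23rg1 (0.39) and Rpl22l1 (0.48).

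**Figure D3:**
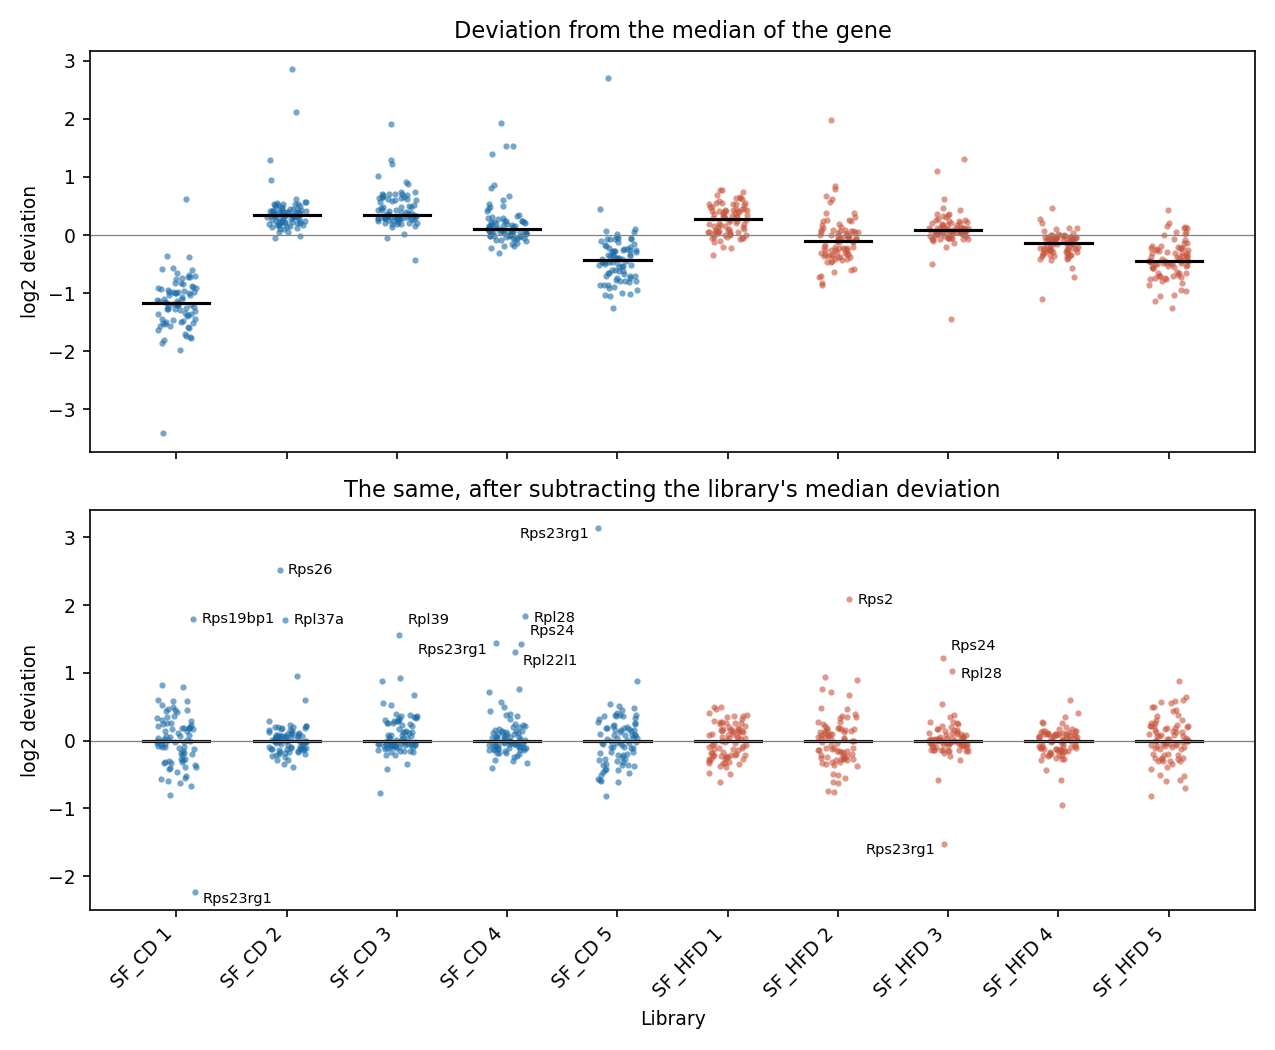
Log2 deviation of each of the 82 tested members from its own median over the 10 libraries (top), and after subtracting the library's median deviation (bottom); 1 point per gene and library, black lines mark medians. The whole family lies low in SF_CD 1 (-1.18), and after subtraction single genes remain far out, with names given where they pass 1 on the log2 scale.

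After the common shift was removed, 14 of 820 values lay more than 1 from 0 on the log2 scale, in 9 genes. Apart from Rps23rg1 and Rps19bp1, these were excesses of 7 ribosomal protein genes in 1 or 2 libraries each. Rps26, which lines the mRNA exit of the small subunit, had 895, 13011, 2245, 2122 and 1708 CPM in SF_CD 1 to 5 and 1907, 1430.4, 1879, 1339 and 1441 CPM in SF_HFD 1 to 5. SF_CD 2 alone stood far above the rest. The pseudogene row Rps26-ps1 was also highest in SF_CD 2 (897 CPM, against 47.3 to 153 elsewhere), and the own row of Rps26 held 93.5% to 94.7% of the sum in every library, so the excess was on both rows in the same proportion. Rpl37a, a zinc-binding protein of the large subunit, had 1064, 7768, 2325, 2265 and 1472 CPM in SF_CD and 1989, 1496, 1786, 1718 and 1773 CPM in SF_HFD. Its high library was again SF_CD 2.

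Rpl28 and Rps24 were both high in SF_CD 4 and SF_HFD 3. Rpl28, of the large subunit, had 638, 1299, 1504, 4627 and 1079 CPM in SF_CD 1 to 5 and 1153, 1266, 2598, 730.2 and 720.0 CPM in SF_HFD 1 to 5. Rps24, of the small subunit and a gene mutated in Diamond-Blackfan anemia, had 579, 1496, 1488, 3436 and 1059 CPM in SF_CD and 1341, 923, 2939, 991 and 726 CPM in SF_HFD. The same pair of libraries, 1 from each diet, was therefore high in both genes. Rpl39, a small protein in the wall of the exit tunnel, was high in SF_CD 3 (3956 CPM, against 508 to 1670.5 in the other 9 libraries). Rps2 was high in SF_HFD 2, at 758 CPM against 105 to 221 elsewhere, and its copy row Rps2-ps10 was highest there too (1880 CPM, against 304 to 472). Rpl22l1 reached 781 CPM in SF_CD 4 and 532 in SF_HFD 2, against 113 to 405 in the other 8.

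The comparison of SF_HFD with SF_CD sets the serine-free high fat diet against the serine-free control diet. No ribosomal protein gene passed the test in either direction: 0 of 82 members were called, at an adjusted p under 0.05, by edgeR's quasi-likelihood test with Benjamini-Hochberg adjustment over all genes, where 0.323% of the 11780 genes tested were called (18 higher, 20 lower). DESeq2 and limma-voom also called 0 members. At an unadjusted p under 0.05 there were 2 members with edgeR (2.44%, against 11.6% of all genes), 2 of the 81 to which DESeq2 gave a p, Rps26 having none (2.47%, against 15.3%), and 11 of 82 with limma-voom (13.4%, against 19.6%). In no member did the 5 libraries of one diet stand clear of the 5 of the other (0 of 82, against 3.65% of all genes). The log2 fold change was below 0 in 43 members and above 0 in 39 (below 0 in 48.6% of all genes).

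The family sat close to 0 in this comparison. The median log2 fold change of the members was -0.01, with quartiles at -0.18 and 0.11, where all genes had a median of 0.02 and quartiles at -0.43 and 0.42. A change smaller than 0.5 in either direction was estimated for 75 of 82 members (91.5%, against 56.3% of all genes). The 95% interval lay within 1 log2 unit of 0 for 58 members (70.7%, against 13.3%), so for the others a 2-fold change in some direction is inside the interval. Large-subunit genes (46 tested) had a median of 0.04 and small-subunit genes (33 tested) a median of -0.03. The median SE of a member was 0.34, against 0.49 over all genes.

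**Figure D4:**
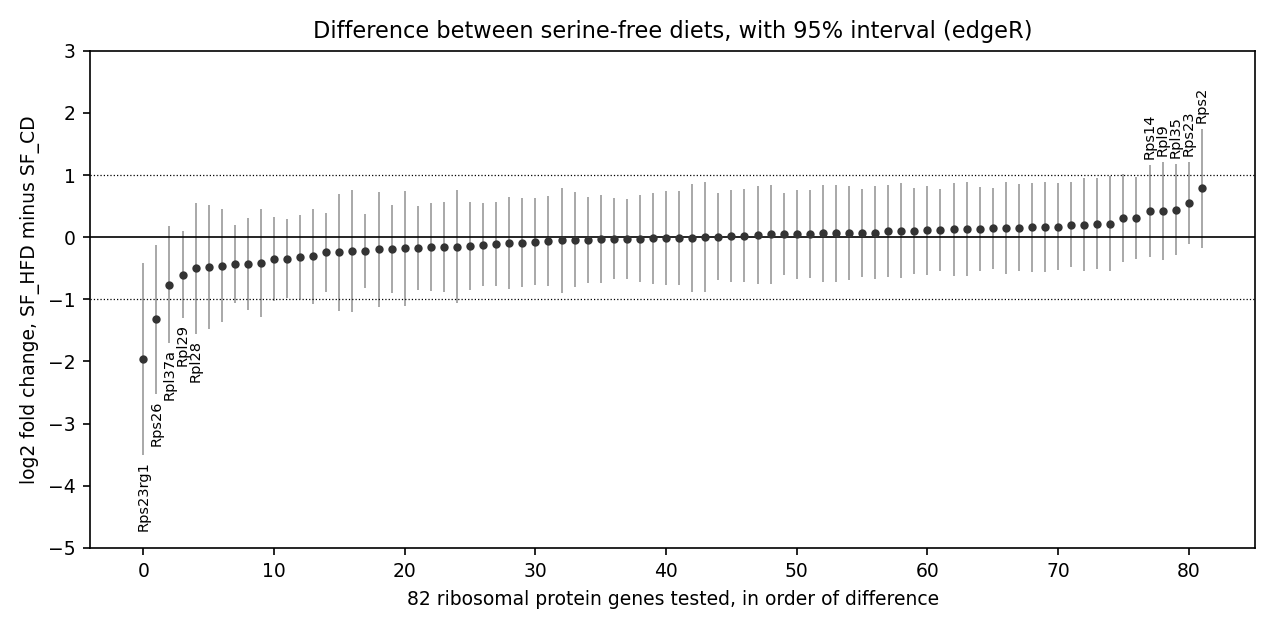
Log2 fold change of SF_HFD against SF_CD for the 82 tested members in rising order, with 95% intervals from edgeR (n = 5 libraries per diet); dotted lines mark a 2-fold change. Points crowd around 0 between quartiles at -0.18 and 0.11, and only Rps23rg1 and Rps26 have intervals that leave out 0.

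Among the members farthest from 0, the estimates of 4 rested on 1 library each and that of Rps23rg1 on few counts. Rps26 had the lowest estimate among ribosomal proteins (log2 -1.32 ± 0.57 SE, edgeR adjusted p = 0.375), and without SF_CD 2 it was -0.12. Rpl37a had -0.77 ± 0.44 (SE, edgeR adjusted p = 0.527), and -0.02 without the same library. Rpl28 had -0.50 ± 0.50 (SE, edgeR adjusted p = 0.745), and 0.18 without SF_CD 4. Rps2 had the highest, 0.78 ± 0.45 (SE, edgeR adjusted p = 0.524), and 0.07 without SF_HFD 2. Each of these 4 estimates thus came close to 0 or changed sign on leaving out its high library. The retrogene Rps23rg1 had 0, 2.86, 4.76, 8.5 and 19.5 CPM in SF_CD and 2.62, 1.38, 0.832, 1.13 and 3.79 CPM in SF_HFD (log2 -1.96 ± 0.73 SE, edgeR adjusted p = 0.312). The 0 in SF_CD 1 allows up to 3 counts, for counting error only. At that library's depth these are 6.0 CPM before TMM scaling, whereas the values above are TMM-scaled. The values of Rps23rg1 in the shallow libraries therefore say little.

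Rpl29, Rps23, Rpl35, Rpl9 and Rps14 were the other members at the ends of the order. Rpl29, a heparin-binding protein of the large subunit, had 369.7, 1179, 1128, 1110.2 and 644 CPM in SF_CD 1 to 5 and 572, 584, 584, 671 and 515 CPM in SF_HFD 1 to 5 (log2 -0.60 ± 0.33 SE, edgeR adjusted p = 0.505). Its 3 high values were the deep SF_CD libraries, and SF_CD 1 lay below all of SF_HFD. Rps23, a decoding-site protein of the small subunit, had 868, 1925, 1912, 2143 and 1451 CPM in SF_CD and 3406, 2064, 2548, 2302 and 1806 CPM in SF_HFD (log2 0.55 ± 0.31 SE, edgeR adjusted p = 0.521). The diets overlapped in both genes. Rpl35 (0.45 ± 0.34), Rpl9 (0.42 ± 0.37) and Rps14 (0.42 ± 0.35) had log2 estimates of like size and did not pass the test. Without SF_CD 1 these were 0.26, 0.20 and 0.24, and without all 3 shallow libraries 0.05, 0.18 and 0.04. With copy rows added, Rpl35 came to 0.03 and Rpl9 to 0.17.

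Leaving out the 3 libraries under 1000000 counts moved the family's estimates downward but called no member. With 3 SF_CD and 4 SF_HFD libraries, 73 of 82 members had a log2 fold change below 0 (89.0%, against 47.4% of all genes in the same model), with a median of -0.26 where all 12653 genes had 0.04. edgeR called 0 members (0.205% of all genes called), the lowest adjusted p being 0.107 for Rpl29, and 13 members had an unadjusted p under 0.05 (15.9%, against 16.5% of all genes). In these 7 libraries 14 members were lower in SF_HFD without overlap (17.1%, against 9.48% of all genes), and 0 were higher without overlap (against 9.47%). The member share was 20.2% ± 0.982 (SD, n = 3, from 19.1% to 21.0%) in SF_CD and 17.3% ± 1.04 (SD, n = 4, from 16.1% to 18.6%) in SF_HFD. Outside ribosomal RNA rows the 3 SF_CD libraries held 19.6% to 21.5% and the 4 SF_HFD libraries 16.7% to 19.3%. As a share of counts on protein_coding rows they held 20.15% to 22.18% and 17.37% to 20.05%, where the groups nearly touched. Ribosomal RNA rows, at 2.08% to 2.40% in SF_CD and 3.59% to 7.19% in SF_HFD, and the smooth muscle markers also separated these libraries. The part of either in the difference was not tested.

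Among the 14 genes, named here after their values were seen, were Rpl14, Rpl17, Rpl27, Rpl29, Rpl37, Rpl37a, Rps20, Rps21, Rps23rg1, Rps26, Rps28 and Rps29. Apart from the retrogene Rps23rg1, those named encode proteins of both subunits. Rpl29 ranged from 1110.2 to 1179 CPM in the deep SF_CD libraries and from 572 to 671 in the deep SF_HFD libraries (log2 -0.92). Rps28, near the mRNA exit of the small subunit, ranged from 3063 to 3642 against 1771 to 2547 CPM (log2 -0.65). Rps20 was the narrowest case by log2 fold change, from 559.8 to 640.2 against 504 to 535 CPM (log2 -0.23). With the shallow libraries included, the diets overlapped for all 14.

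By role, 0 members of any list were called in the comparison of all 10 libraries. The P stalk recruits the elongation factors, and its Rplp0 had 5657 ± 2417 CPM in SF_CD and 5071 ± 1052 in SF_HFD, Rplp1 1427 ± 433 and 1548 ± 396, and Rplp2 1258 ± 402 and 1156 ± 337 (SD, n = 5 each). Rpl5 and Rpl11 form, with 5S RNA, the particle that binds Mdm2 when ribosome assembly fails. Rpl5 had 849 ± 401 and 928 ± 122 CPM, and Rpl11 3151 ± 1852 and 2757 ± 985 CPM (SD, n = 5 each). None of these 5 was called, with log2 fold changes between -0.19 and 0.13. The 8 genes of the exit tunnel had a median log2 fold change of 0.04, the 5 of the small subunit's mRNA channel -0.02 and the 11 mutated in Diamond-Blackfan anemia -0.14, with 0 called in each list (edgeR) and 1 gene, Rps26, at an unadjusted p under 0.05 in both of the latter lists. In the 7 deep libraries the medians were -0.20 for the exit tunnel, -0.19 for the mRNA channel, -0.47 for the Diamond-Blackfan genes, -0.28 for the P stalk and -0.37 for Rpl5 and Rpl11, beside -0.26 for all members.

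Paralog and canonical gene were both measurable for 4 pairs. The ratio of paralog to canonical gene within a library does not depend on how libraries are scaled. Rpl22l1 made up between 17.7% and 48.8% of the summed CPM of Rpl22l1 and Rpl22, the widest range of the 4, with 24.8%, 24.1%, 27.7%, 48.8% and 46.7% in SF_CD 1 to 5 and 17.7%, 47.4%, 18.6%, 22.4% and 40.3% in SF_HFD 1 to 5. High shares occurred in both diets. The log2 ratio was -0.98 ± 0.79 in SF_CD and -1.37 ± 0.95 in SF_HFD (SD, n = 5 each; difference -0.39, two-sided exact permutation p = 0.508, adjusted over the 4 pairs 0.770). On leaving out 1 library the difference ran from -0.70 without SF_HFD 2 to -0.16 without SF_CD 4, and it was also nearer to 0 without SF_CD 5 (-0.19), SF_HFD 1 (-0.18) or SF_HFD 3 (-0.20) and farther without SF_HFD 5 (-0.59). Rps27l, a p53 target and the partner of Rps27, made up 13.03% to 24.8% (log2 ratio -2.15 ± 0.36 against -1.90 ± 0.26, n = 5 each, exact permutation p = 0.246, adjusted 0.770). Rpl36al slightly exceeded Rpl36a in most libraries, at 48.2% to 63.9% (0.39 ± 0.21 against 0.28 ± 0.36, n = 5 each, exact permutation p = 0.603, adjusted 0.770), but Rpl36a has the greater part of its reads on a copy row. Rpl7l1 made up 9.85% to 21.4% of its sum with Rpl7 (-2.82 ± 0.08 against -2.70 ± 0.51, n = 5 each, exact permutation p = 0.770, adjusted 0.770), and its highest share was in the shallow SF_HFD 5. The smallest p that 5 against 5 libraries allow is 0.00794. Rps4l was not analysed here.

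**Figure D5:**
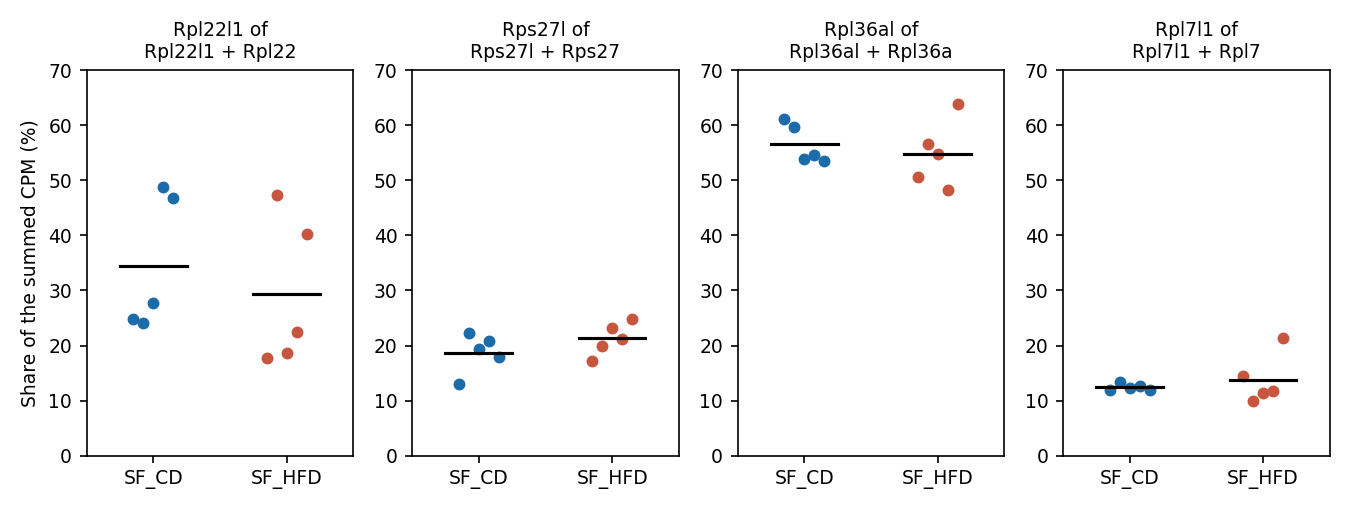
Share (%) of the paralog in the summed CPM of paralog and canonical gene, 1 point per library, bars mark the mean of each diet (n = 5). The 2 diets overlap in all 4 pairs, and Rpl22l1 spans the widest range, from 17.7% to 48.8%.

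Genes that work with the ribosome gave no calls either. Of all 11780 genes tested, 0.323% were called by edgeR and 6051 had estimates above 0. Among the ribosomal genes outside the name rule, Fau, which encodes a ubiquitin-like fusion of Rps30, had 1647 ± 643 CPM in SF_CD and 2118 ± 196 in SF_HFD, and Rpsa, of the small subunit, 1466 ± 256 and 1251 ± 256 (SD, n = 5 each). The 78 mitochondrial ribosomal protein genes, encoded in the nucleus but serving another ribosome, had a median log2 fold change of 0.18 in all libraries and -0.23 in the 7 deep ones, so their median lay above 0 with the shallow libraries and below 0 without them. All 8 elongation genes had estimates above 0 with 0 called (median 0.33, and 0.07 in the deep libraries), among them Eef1a1, which brings aminoacyl-tRNA to the ribosome, at 1646 ± 469.6 against 2363 ± 421 CPM (edgeR adjusted p = 0.519). Of 31 initiation genes 0 were called (median 0.10, and 0.02 in the deep libraries), and Pabpc1, the poly(A)-binding protein, had 5591, 1227, 1483, 1184 and 2958 CPM in SF_CD and 552, 1108, 685, 772 and 729 CPM in SF_HFD (log2 -1.69 ± 0.43 SE, edgeR adjusted p = 0.122). The diets did not overlap for Pabpc1, whose highest values were in the shallow SF_CD 1 and SF_CD 5. Among 45 ribosome biogenesis genes 33 had estimates above 0 and 0 were called (median 0.39, and 0.39 in the deep libraries). Of these 45, 6 had an unadjusted p under 0.05 with edgeR, where 11.6% of all genes did. The 14 other TOP mRNAs (median 0.08, and -0.07 in the deep libraries), the 12 genes of mTOR and Larp1 control (0.32 and 0.27) and the 5 of 6 RNA polymerase I activators that were measured (-0.25 and -0.01) had 0 called by edgeR.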

How the data were processed

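Estimated counts per gene, whole numbers as deposited by the authors, came from Salmon 1.3.0 and build mm10, as the submitters' processing notes name them. Which annotation and filter they used is not given in the sources used here. Columns were matched to samples by library name. Members and gene lists were chosen with earlier results of these data known. Coordinates and transcripts are those of GENCODE M21, which holds 94.7% of the row identifiers and all 86 members.

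SF_HFD was compared with SF_CD by edgeR's quasi-likelihood test (edgeR 4.0.16, limma 3.58.1, R 4.3.3, robust, TMM, filterByExpr, Benjamini-Hochberg threshold 0.05 over all genes). The steps were tested on simulated counts. CPM are TMM-normalised. Log2 CPM used a prior count of 2. Paralog ratios were tested by two-sided exact permutation. Named genes were the 10 highest per length, the 5 largest log2 fold changes each way, the 5 largest SDs, the paralogs, the P stalk and 5S genes, and up to 4 called or 2 most abundant genes per list; some genes that this rule takes are not reported here. Alternatives were RLE and upper quartile scaling, TMM without members, no ribosomal RNA rows, filters, DESeq2 1.42.0, limma-voom, a replicate block, leaving out libraries and, chosen after seeing the data, copy rows added. Floors (3 counts) cover counting error only, while edgeR's intervals include the spread between libraries.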

Additional observations from a re-analysis of the deposited data

Results flagged for a closer look

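Of 96 group values checked for 1 library far from the other 4 of its group, 7 were far out (gap over range above 0.71). The checked set included genes named because they stood apart in single libraries. All 7 are such genes, so 7 of 96 is not a rate for the family. Over all tested members 10 of 164 gene and group combinations were (6.10%). The cut gives about 1 in 20 for independent, normally distributed values, which these CPM need not be. The rate over all genes was not computed.

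In SF_CD, Rps26 stood at 13011 CPM in library 2 (others 895 to 2245) and Rpl37a at 7768 CPM in the same library (1064 to 2325). Rpl39 stood at 3956 CPM in SF_CD 3 (566 to 1403) and Rpl28 at 4627 CPM in SF_CD 4 (638 to 1504). In SF_HFD, library 2 held Rps2 at 758 CPM (164 to 198) and Rpl22l1 at 532 CPM (210.2 to 268). Rps24 stood at 2939 CPM in SF_HFD 3 (726 to 1341). None of these libraries is under 1000000 counts.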

How the results depend on the processing

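0 members were called in the 21 alternatives, of which DESeq2 and limma-voom are 1 each and the others edgeR models, and the median log2 fold change of the members ranged from -0.26 to 0.15. The difference in member share ranged from -2.90 to 2.27 percentage points, so its sign is not settled. Calls over all genes (38) came to 78 with no filter, 18 with at least 10 counts in 5 libraries, 298 with DESeq2 and 168 with limma-voom. They ranged from 16 to 88 on leaving out 1 library: 88 without SF_CD 2, 24 without SF_CD 4, 19 without SF_HFD 2, 16 without SF_HFD 4 and 23 without SF_HFD 5. Same-numbered libraries did not deviate together (correlations -0.211 to 0.136), and a replicate block gave 22 calls and 0 members.

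Signs turned for Rps2 with limma-voom (-0.0046), for Rpl28 without SF_CD 4 (0.18, range -0.92 to 0.18 on leaving out 1 library), for the Rps27l to Rps27 ratio without the shallow libraries (-0.039) and for the Rpl7l1 to Rpl7 ratio without the shallow libraries (-0.14) or without SF_HFD 5 (-0.091, range -0.091 to 0.24 on leaving out 1 library). The causes were not tested. With 3 against 4 libraries the exact permutation test has few arrangements and is coarse. In the 3 shallow libraries 3 counts equal 4.12 to 6.0 CPM before TMM scaling, which limits Rps23rg1 most.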
